A study of Mus musculus with 82 samples.

Results

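The S100 proteins are small calcium-binding proteins, and 10 of their genes were followed here through mouse ear skin inflamed with imiquimod: S100a8, S100a9, S100a7a, S100a3, S100a4, S100a6, S100a10, S100a11, S100a14 and S100a16. They were chosen by symbol, 10 of the 56941 genes listed, and all 10 passed the filter on low counts in both experiments. Punches of the right ear, taken from female mice of the strain C57BL/6J Rj, gave 82 mRNA libraries in 14 groups, 6 libraries in each group except 4 in the day 5 sham group. Cream with 5% imiquimod, an agonist of the receptor TLR7, was put on the ears once a day from day 0 to day 7, 8 applications in all. Some mice drank water with IDOR-1117-2520, which blocks CCR6, the chemokine receptor of Th17 and gamma delta T cells.

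The time course held 9 groups: sham (named vehicle in 1 label), imiquimod, and imiquimod with the drug, each at days 2, 5 and 8. A second experiment, called start-day here, had 5 groups, namely sham, imiquimod alone, and imiquimod plus the drug from day 0, from day 3 or from day 5. The protocol has the drug begin at least 1 day before imiquimod and is worded alike for every sample, so the start days rest on the treatment labels. A treatment-time label of day 8 was given to the sham, imiquimod and day 0 groups, day 5 to the day 3 group and day 3 to the day 5 group. In the day 5 group the label precedes the drug start, so it cannot be the sampling day there. It could be the time on drug, and the sampling day is not stated otherwise. What the sham ears received, the ages, the dose and whether each library came from its own mouse are not stated. P values therefore measure the spread between these libraries, which may be partly technical. Libraries of the time course were 13.1 to 35.4 M counts deep, those of the start-day experiment 24.1 to 35.5 M. Levels are TMM-scaled CPM (counts per 1e6 counts of the library), differences are log2 fold changes with standard errors, and calls rest on edgeR with an adjusted p below 0.05.

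S100 proteins act both inside and outside cells. Inside, they bind targets such as annexins and myosin when calcium rises. Outside, S100A8 and S100A9 pair as calprotectin, which binds zinc and manganese, limits microbial growth, and signals through TLR4 and the receptor RAGE. Neutrophils store calprotectin in quantity, and keratinocytes make it, together with S100A7 proteins, in psoriatic and wounded epidermis. S100A3 belongs to the hair cuticle, while S100A4, S100A6, S100A10, S100A11, S100A14 and S100A16 are carried by many resting cells.

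The 2 calprotectin genes are neighbours on chromosome 3 and are read from opposite strands. RefSeq promoter entries of the GRCm38.p6 build matched 8 of the 10 members, S100a10 and S100a14 being the others, and all 8 lay on chromosome 3. The counts were made against GRCm39, so these positions are not those of the count tables. The 250 bases upstream of the annotated starts of S100a8 (chr3:90668821-90669070, plus strand) and S100a9 (chr3:90695722-90695971, minus strand) are shown because these genes moved in the same direction in the imiquimod and drug comparisons below, with S100a7a (chr3:90654052-90654301, plus strand), the next most induced member. Capitals mark matches to TATAAA (sense strand), or to TTNNGNAA (C/EBP), TTCNNNGAA (STAT) or TGANTCA (AP-1) on either strand.
S100a8: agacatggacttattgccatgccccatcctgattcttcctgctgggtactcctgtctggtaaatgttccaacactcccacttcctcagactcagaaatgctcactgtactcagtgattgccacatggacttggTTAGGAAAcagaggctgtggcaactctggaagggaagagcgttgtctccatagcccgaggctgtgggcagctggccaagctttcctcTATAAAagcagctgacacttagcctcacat
S100a9: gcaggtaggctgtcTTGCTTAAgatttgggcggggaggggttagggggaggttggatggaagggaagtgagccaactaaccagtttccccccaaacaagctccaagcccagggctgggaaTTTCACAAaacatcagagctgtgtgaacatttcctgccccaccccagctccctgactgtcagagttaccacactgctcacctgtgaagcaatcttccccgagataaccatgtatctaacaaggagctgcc
S100a7a: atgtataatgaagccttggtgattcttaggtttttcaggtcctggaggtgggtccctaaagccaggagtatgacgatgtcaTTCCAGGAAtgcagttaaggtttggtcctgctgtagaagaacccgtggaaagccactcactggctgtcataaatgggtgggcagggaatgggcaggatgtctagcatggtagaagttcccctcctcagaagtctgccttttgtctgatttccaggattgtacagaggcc

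S100a8 held TATAAA at bases -30 to -25 before its start and a C/EBP match at -117 to -110. S100a9 held C/EBP matches at -236 to -229 and -130 to -123, and its TATAAA began at base 1 past the annotated start, outside the window shown. S100a7a held a STAT match at -169 to -161 and no C/EBP match. Over 32851 promoter windows of 250 bases, TATAAA was in 7.59%, the C/EBP letters in 36.8%, the STAT letters in 7.02% and the AP-1 letters in 6.75%. TATAAA in the 50 bases past the start was in 0.691%. A kappaB match on either strand was in 45.8% of windows, S100a7a alone among these 3, and is not capitalised. A match is a run of letters and not a measured binding site, and a missing match says only that the letters are not in the window.

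Imiquimod raised calprotectin from near 0 to the top of the S100 family. S100a8 in sham ears had a median of 1.11 CPM at day 2 (0.356 to 13.9), and with imiquimod a median of 248 CPM (56.9 to 1009). At day 5 its sham libraries held 0.190, 0.629, 1.04 and 0.280 CPM, against a median of 2530 CPM with imiquimod (2183 to 3210). At day 8 the sham median was 1.01 CPM (0.385 to 3.51) and the imiquimod median 2271 CPM (1976 to 2610). Every imiquimod library lay above every sham library of its day. The spread with imiquimod was widest at day 2, where 2 of the 6 sham libraries, at 12.98 and 13.9 CPM, were also far above the other 4.

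The rise of S100a8 was 6.21 ± 0.70 on the log2 scale at day 2 (adjusted p = 3.05e-10), 12.28 ± 1.13 at day 5 (adjusted p = 4.53e-13) and 10.51 ± 0.84 at day 8 (adjusted p = 7.23e-15). In the start-day experiment the sham median was 1.25 CPM (0.443 to 3.13), the imiquimod median 3690 CPM (3194 to 4256), and the rise 11.37 ± 0.38 (adjusted p = 5e-20). S100a9 went with it: medians of 268, 2997 and 2721 CPM with imiquimod at days 2, 5 and 8, and 4527 CPM in the start-day experiment, against sham medians of 1.38, 0.675, 1.59 and 0.895 CPM. Its rises were 6.28 ± 0.69, 12.24 ± 1.10, 10.28 ± 0.81 and 12.36 ± 0.39. These folds are taken over low sham counts, so their size is imprecise. The effect of imiquimod differed among the 3 days for both genes (edgeR F test, adjusted p = 0.000158 for S100a8 and 0.000136 for S100a9). From day 2 to day 5, where 6 of 10 members and 45.9% of all genes were called, both rose within imiquimod ears, S100a8 by 2.87 ± 0.56 and S100a9 by 2.97 ± 0.56. From day 5 to day 8, with 1 member (S100a10, -0.35 ± 0.07) and 11.8% of genes called, neither passed the test (-0.21 ± 0.52, adjusted p = 0.844, and -0.23 ± 0.52, adjusted p = 0.83).

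Per kilobase of the longest protein-coding GENCODE M21 transcript, the order of the family turned over. In day 5 sham ears S100a11 stood first at 687 CPM per kb, followed by S100a4 at 513 and S100a6 at 459, while S100a9 and S100a8 had 1.28 and 1.10 CPM per kb. In day 5 imiquimod ears S100a9 and S100a8 led with 6147 and 5439 CPM per kb, ahead of S100a11 at 1320. In day 2 imiquimod ears, S100a11 and S100a6 still led with 1072 and 886 CPM per kb, with S100a9 at 785 and S100a8 at 744 CPM per kb. The summed level of S100a8 and S100a9 was 0.606 to 1.87 CPM over day 5 sham libraries and 4833 to 7235 CPM over day 5 imiquimod libraries. The other 8 members together moved from a median of 1563 CPM to 2709 CPM.

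**Figure D1:**
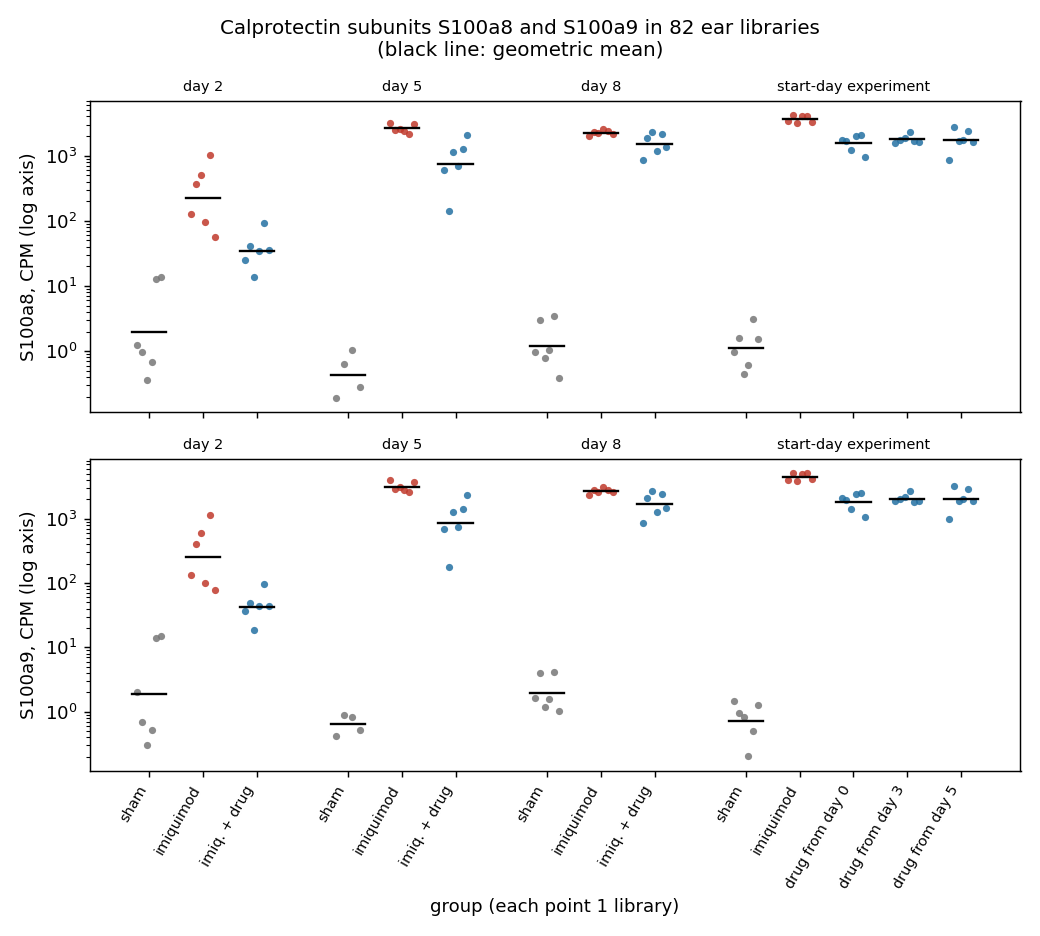
S100a8 (top) and S100a9 (bottom) in CPM on a log axis, 1 point a library and a black line at the geometric mean, for sham (grey), imiquimod (red) and imiquimod with the drug (blue) at days 2, 5 and 8 and in the start-day experiment. Sham libraries reach 13.9 CPM of S100a8 at most, at day 2, and imiquimod libraries lie between 1976 and 4256 CPM from day 5 on.

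Neutrophil markers moved over the same groups. Of 12 marker genes 7 could be tested in the time course, and 4, 6 and 6 of them rose with imiquimod at days 2, 5 and 8, with 0 lower. In the start-day experiment all 5 tested rose. The shares of all genes called higher were 29.2%, 34.6%, 34.5% and 38.1% in these 4 comparisons. Cxcr2, a chemokine receptor of neutrophils, rose by 2.91, 4.30, 3.67 and 4.34 on the log2 scale. The summed level of the 12 markers was 2.85 to 5.71 CPM in day 5 sham ears and 99.6 to 200.3 CPM with imiquimod, and 3.63 to 5.22 against 50.9 to 73.3 CPM at day 8. Ly6g, a defining neutrophil surface marker, had 0 counts in all sham groups, and Elane and Mpo had at most 6 and 49 counts over any group. Activated keratinocyte genes, which mark injured or psoriatic epidermis, rose in 11 of 11 at every day and in the start-day experiment. Their summed level went from 252 to 301 CPM in day 5 sham ears to 22878 to 32222 CPM with imiquimod, Sprr2d rising by 11.08 ± 0.78 and Krt16 going from a mean of 10.1 to 7321 CPM. From day 5 to day 8 within imiquimod ears, 5 of 7 neutrophil markers and 0 of 11 activated keratinocyte genes passed the test as lower. The summed level of the activated keratinocyte genes was nonetheless lower at day 8, at 13935 to 19258 CPM, without overlap with day 5, and their median log2 fold change was -0.45. In bulk tissue, more cells of a type and more RNA per cell cannot be told apart, and the part of either cell type in the calprotectin result was not tested.

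By group pattern, the genes most like S100a8 over the 9 time-course groups were S100a9 (root mean square difference of centred log2 group means 0.17), Krt6b (0.55) and Cstdc5 (0.58). Over the 5 start-day groups the same genes gave 0.33, 0.12 and 0.40. The nearest to S100a9 after S100a8 were Krt6b (0.54, and 0.34 in the start-day groups) and Stfa1 (0.57, and 0.55). Krt6b is a keratin of activated epidermis, and Cstdc5 and Stfa1 belong to the stefin A family of protease inhibitors. The span of S100a8 was 12.23 log2 units over the same 9 groups. The measure was not scaled to span, so a gene with the same shape over a much smaller span does not come out as near. Whether neutrophil markers share the shape was not tested.

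The drug was next compared with imiquimod alone, on the day or in the experiment of each group. At day 2, S100a8 had a median of 35.01 CPM with the drug (13.5 to 91.1) against 248 CPM without it (56.9 to 1009). The 2 groups overlapped, and the difference was -3.17 ± 0.58 (adjusted p = 0.000776). S100a9 was at a median of 44.5 CPM (18.5 to 96.0) against 268 CPM, a difference of -3.08 ± 0.57 (adjusted p = 0.000803). This early difference leaned on 2 imiquimod libraries, numbers 9 and 11, which held 511 and 1009 CPM of S100a8 and also the highest summed neutrophil markers of their group, 46.3 and 44.6 CPM against 10.6 to 23.1 CPM in the other 4. Their summed activated keratinocyte genes were the highest as well, 10561 and 14377 CPM against 3391 to 8829 CPM. With both left out, chosen after seeing the data, S100a8 gave -2.02 (adjusted p = 0.0853) and S100a9 -1.89 (adjusted p = 0.0897). When only the compared groups were fitted, S100a8 gave -3.17 and S100a9 -3.09, both with adjusted p = 0.0611.

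At day 5 S100a8 was lower with the drug in all 6 libraries than in any imiquimod library: 609, 142, 1130, 688, 1283 and 2060 CPM against 2183 to 3210. The fall was 1.42 ± 0.53 (log2 fold change -1.42, adjusted p = 0.0332), and that of S100a9 1.52 ± 0.53 (-1.52, adjusted p = 0.0219). The 6 drug libraries ranged far more widely than the imiquimod libraries. Number 32, with the least S100a8, also had the least summed neutrophil markers (17.5 CPM) and activated keratinocyte genes (5062 CPM) of its group. Number 36, with the most S100a8, had the most of both, 100.4 and 18519 CPM. The call for S100a8 was lost without imiquimod library 25 (-1.36, adjusted p = 0.0578) or 30 (-1.38, 0.0562), or without drug library 31 (-1.32, 0.0697), 32 (-1.20, 0.0843) or 34 (-1.34, 0.0669), and in a fit without the filter on low counts (-1.42, 0.0684). The call for S100a9 was lost without library 32 (-1.29, adjusted p = 0.0593).

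At day 8 S100a8 had 850, 1883, 2320, 1169, 2165 and 1374 CPM with the drug, against 1976 to 2610 CPM without it. The groups overlapped, and neither S100a8 (-0.49 ± 0.52, adjusted p = 0.737) nor S100a9 (-0.59 ± 0.52, adjusted p = 0.662) passed the test. The effect of the drug differed among the 3 days in 7.99% of all genes and in 1 member. It gave adjusted p = 0.0494 for S100a8 and 0.0655 for S100a9 (edgeR F test). For S100a8, DESeq2, a fit without the filter, a fit of the compared groups, and leaving out libraries 9 and 11 together each took that call away, and so did leaving out any 1 of 28 of the 36 libraries (adjusted p up to 0.139, without imiquimod library 11 of day 2). In the start-day experiment both fell with every start day. S100a8 had medians of 1699 CPM (970 to 2105), 1685 CPM (1590 to 2333) and 1708 CPM (852 to 2743) with the drug from day 0, 3 and 5, all below the 3194 to 4256 CPM of imiquimod alone. Its differences were -1.20 ± 0.23 (adjusted p = 0.000171), -1.04 ± 0.23 (0.000815) and -1.01 ± 0.23 (0.00147), those of S100a9 -1.24 ± 0.22, -1.13 ± 0.22 and -1.06 ± 0.22. These 3 comparisons share their imiquimod libraries. Among the start days 0 of 10 members and 0.00542% of all genes differed, with S100a8 at adjusted p = 0.92 and the lowest, S100a14, at 0.41 (edgeR). DESeq2 also called 0, and 1 of 10 had an unadjusted p under 0.05 by edgeR.

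The drug results of day 8 and of the drug from day 0 were set against each other in 1 joint fit of 19455 genes. The day 8 drug group carries no start-day label, so whether its drug began on the same day is not stated. The drug effect on S100a8 in the start-day experiment minus that at day 8 was -0.71 ± 0.61 (edgeR adjusted p = 0.606). Of the 10 members 0 passed, against 0.828% of all genes, 3 had an unadjusted p under 0.05, and DESeq2 called 1. That 1 was S100a11 (-0.19, adjusted p = 0.073 by edgeR, 0.0292 by DESeq2), which was also called in the compared groups alone (-0.21, 0.0409). So the effect at day 8, which did not pass, was not shown to differ from that of the start-day experiment.

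In drug ears neutrophil markers fell in 3 of 7 at day 2, 6 of 7 at day 5, 0 of 7 at day 8, and in 5, 5 and 4 of 5 with the drug from day 0, 3 and 5. The shares of all genes called lower were 9.61%, 17.2%, 0.335%, 16.9%, 16.4% and 12.7%, so few genes of any kind fell at day 8. Csf3r, the receptor for the growth factor G-CSF, gave -1.52, -2.19, -0.01, -1.46, -1.41 and -1.11 in those comparisons, day 8 being the one not called. The summed neutrophil level was 17.5 to 100.4 CPM at day 5 with the drug against 99.6 to 200.3 CPM, and 41.9 to 106 against 50.9 to 73.3 CPM at day 8. Activated keratinocyte genes fell in 10, 6 and 0 of 11 at days 2, 5 and 8 and in 11, 8 and 7 of 11 with the drug from day 0, 3 and 5. The part of these cells in the lower calprotectin transcripts was not tested. Against sham, calprotectin stayed high in drug ears, S100a8 by 3.04 ± 0.65 at day 2, 10.86 ± 1.09 at day 5, 10.03 ± 0.83 at day 8, and by 10.17 to 10.36 with the 3 start days. At days 2, 5 and 8 and from day 0, 3 and 5, 9, 9, 10, 10, 10 and 10 members differed from sham with the drug, against 44.2%, 60.3%, 66.8%, 74.3%, 74.7% and 75.5% of all genes.

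The ratio of the 2 subunit transcripts was taken within each library, where scaling factors drop out, as log2 of S100a8 over S100a9 with 0.5 added to both counts. With imiquimod alone it was narrow from day 5 on: -0.27 ± 0.03 at day 5, -0.26 ± 0.03 at day 8 and -0.29 ± 0.03 in the start-day experiment (mean ± SD, n = 6), so S100a9 was the more abundant transcript by count. With the drug it was -0.13 ± 0.06 at day 8, closer to even, with all 6 drug libraries (-0.199 to -0.0397) above all 6 imiquimod libraries (-0.293 to -0.216). That difference of 0.12 had adjusted p = 0.0108 (two-sided exact permutation test over 924 relabellings, 10 tests adjusted together, the smallest adjusted value reached). The drug from day 3 gave 0.09 (exact permutation, adjusted p = 0.0108) and from day 5 gave 0.06 (0.0325), the latter call lost without library 11, 15, 16 or 18 (adjusted p up to 0.0541). From day 0 it gave 0.05 (adjusted p = 0.141), at day 5 0.08 (0.108, or 0.00722 without library 32) and at day 2 -0.15 (0.165), by the same exact test. The shift at day 8 appears although neither subunit passed the test there. Against sham the ratio was called at day 8 alone (0.39, exact permutation, adjusted p = 0.0325), where leaving out any 1 of the 6 imiquimod libraries lost the call (adjusted p up to 0.0703). A call was gained by leaving out 1 sham library: 1 at day 2 (-0.36, exact permutation, adjusted p = 0.0303), 21 at day 5 (0.53, 0.026) or 3 in the start-day experiment (-1.21, 0.0303). Sham ratios scattered, from -0.88 to 2.64 in the start-day sham group, where S100a8 had 267 and S100a9 164 counts over all libraries. With 5 added to both counts in place of 0.5, the library at 2.64 gave 2.35. The cause of the scatter was not tested.

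**Figure D2:**
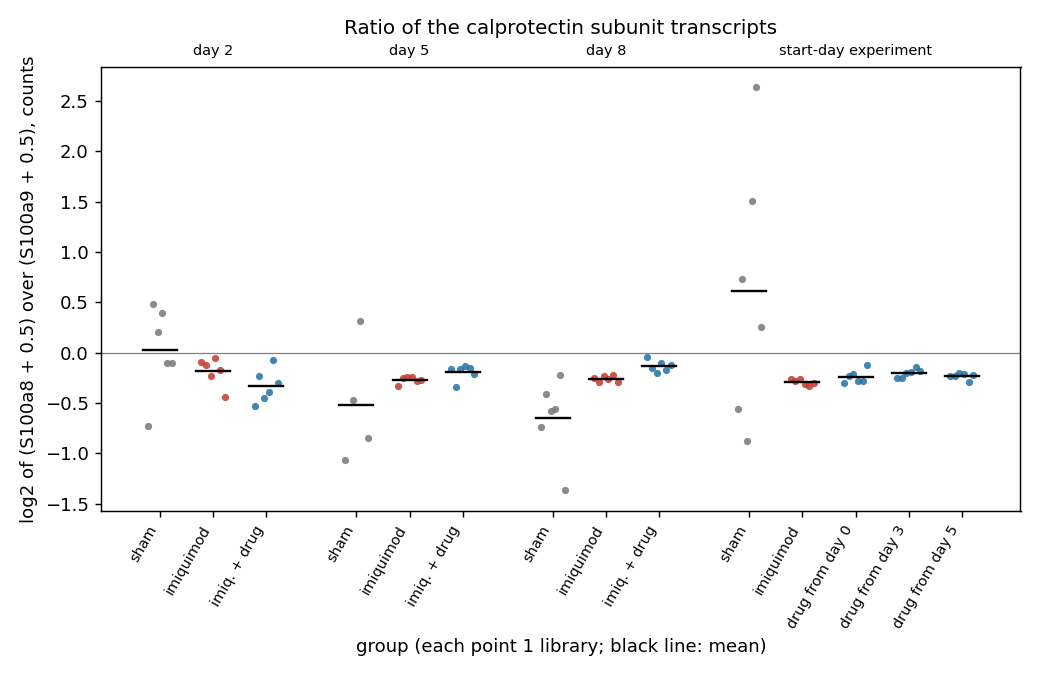
Log2 ratio of S100a8 to S100a9 counts, each with 0.5 added, 1 point a library and a black line at the mean, for sham (grey), imiquimod (red) and drug (blue) groups. The imiquimod libraries sit between -0.335 and -0.216 from day 5 on, and the 6 day 8 drug libraries lie above the 6 day 8 imiquimod libraries.

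S100a7a, the mouse member of the psoriasin group, was a scarce transcript that followed calprotectin. In sham ears it had medians of 0.487, 0.370, 0.167 and 0.390 CPM at days 2, 5 and 8 and in the start-day experiment. With imiquimod it had medians of 1.15 CPM (0.257 to 4.04), 8.77 CPM (6.09 to 12.7), 4.93 CPM (3.60 to 8.15) and 22.4 CPM (19.5 to 26.2). From day 5 on no imiquimod library overlapped sham, while at day 2 the groups overlapped. The rises were 1.49 ± 0.51 (adjusted p = 0.0116), 4.64 ± 0.59, 4.72 ± 0.54 and 5.95 ± 0.32. The day 2 call was lost without imiquimod library 11 (1.00, adjusted p = 0.0965), and with 9 and 11 both out (0.54, 0.447). The effect of imiquimod differed among days (adjusted p = 0.000976).

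The drug lowered S100a7a at day 5 to a median of 3.24 CPM (0.410 to 3.84), below every imiquimod library, a difference of -1.71 ± 0.40 (adjusted p = 0.000744). At day 8 it was 4.18 CPM (1.27 to 8.10), overlapping imiquimod alone (-0.36 ± 0.40, adjusted p = 0.744). In the start-day experiment it fell with the drug from day 0, 3 and 5 to medians of 8.78, 7.61 and 9.85 CPM, all libraries below the imiquimod group (-1.48 ± 0.22, -1.43 ± 0.22 and -1.23 ± 0.21). At day 2 the difference was -1.74 ± 0.54 (adjusted p = 0.0206). That call was lost without imiquimod library 9 (-1.59, 0.0741) or 11 (-1.25, 0.134), without drug library 13 (-1.59, 0.0633) or 15 (-1.58, 0.0577), in a fit without the filter (0.0546) and in one of the compared groups alone (-1.76, 0.107). It was also lost with libraries 9 and 11 both out (-0.78, adjusted p = 0.562). Closest in pattern over the 9 groups were Lgi2 (0.21), Pi15 (0.25) and Mefv (0.32), which over the 5 start-day groups lay farther off at 0.69, 0.81 and 1.00 log2 units.

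S100a3, known from the hair cuticle and a substrate of the deiminase Padi3, moved the other way from calprotectin and S100a7a. It was low throughout, with sham medians of 3.80 CPM (3.39 to 5.61) at day 2, 4.92 (4.21 to 6.06) at day 5 and 4.69 (3.20 to 6.44) at day 8. With imiquimod it had 1.42 CPM (1.06 to 2.55), 1.25 (0.481 to 1.51) and 1.16 (0.831 to 1.36), with no overlap with sham at any day. The falls were 1.45 ± 0.22, 2.14 ± 0.24 and 2.05 ± 0.23, and 2.08 ± 0.21 in the start-day experiment (log2 fold changes -1.45, -2.14, -2.05 and -2.08). They did not pass the test of a difference among days (adjusted p = 0.152).

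With the drug S100a3 lay between the other 2 groups. Its medians were 2.81 CPM (1.65 to 3.68) at day 2, 1.90 (1.35 to 2.64) at day 5 and 1.68 (1.07 to 2.13) at day 8, each range overlapping that of imiquimod alone. The rise over imiquimod was 0.80 ± 0.22 at day 2 (adjusted p = 0.0113) and 0.71 ± 0.23 at day 5 (0.0137), and day 8 gave 0.54 ± 0.24 (0.273). From day 0, 3 and 5 it was 0.82 ± 0.22 (adjusted p = 0.00431), 0.68 ± 0.22 (0.0172) and 0.90 ± 0.22 (0.00239). Single libraries took away some of these calls: at day 2 imiquimod library 9 (0.70, 0.053) or drug library 13 (0.68, 0.0521), at day 5 imiquimod library 26 (0.54, 0.0569), and from day 3 imiquimod library 11 (0.59, 0.0513) or drug library 20 (0.52, 0.0733). A fit of the compared groups gave 0.80 (0.0763) at day 2, and libraries 9 and 11 out together 0.65 (0.198).

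Most hair genes were too low to test, so whether the hair genes moved with S100a3 was left undecided. Of 12 shaft and follicle markers 11 were matched and 4 could be tested, of which 1 rose and 1 fell with imiquimod at days 5 and 8 and in the start-day experiment. Their summed level ranged from 13.4 to 18.5 CPM in day 5 sham ears and from 15.96 to 18.8 CPM with imiquimod. The shaft keratins themselves were near the floor: Krt31 had 21 and Krt35 20 counts over all day 5 sham libraries, against 5 and 3 with imiquimod. Both were thus lower with imiquimod, at counts too low to weigh, and were named after their values were seen. The summed level of the hair genes was instead higher by median with imiquimod, with overlapping ranges. It was 17.5 against 14.5 CPM in sham ears at day 2 and 17.04 against 14.1 CPM at day 5. At day 8 it was 20.4 against 16.6 CPM, and in the start-day experiment 20.6 against 16.6 CPM. Padi3 was not called at days 2 and 5 and rose by 2.59 ± 0.58 at day 8 and 2.36 ± 0.47 in the start-day experiment. The genes closest to S100a3 in group pattern were D630003M21Rik (0.10, and 0.24 in the start-day groups), Ccer2 (0.13 and 0.35) and Tmem159 (0.13 and 0.17).

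**Figure D3:**
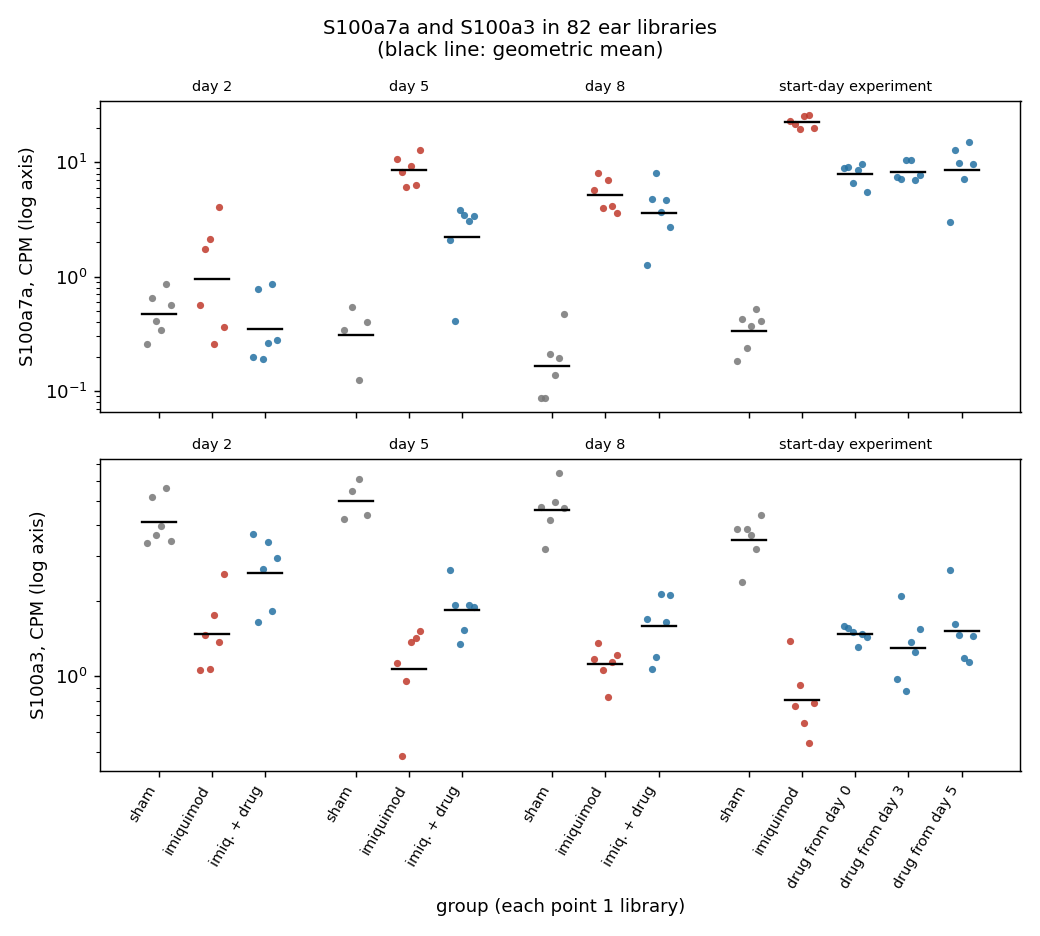
S100a7a (top) and S100a3 (bottom) in CPM on log axes, 1 point a library and a black line at the geometric mean, for sham (grey), imiquimod (red) and drug (blue) groups. With imiquimod S100a7a lies above sham from day 5 on while S100a3 lies below sham at every day, and the median of the drug group lies between those of sham and imiquimod at day 5.

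The 6 members that resting ear skin carries in quantity changed far less, between 0.05 and 1.24 log2 units in size. S100a16, a widely expressed member, rose from medians of 177, 168 and 182 CPM in sham ears to 306, 399 and 380 CPM at days 2, 5 and 8, and from 162 to 384 CPM in the start-day experiment. The rises were 0.80 ± 0.05, 1.19 ± 0.06, 1.05 ± 0.05 and 1.24 ± 0.03, with no overlap of groups. S100a11, a partner of annexin A1 in epithelia, rose by 0.64 ± 0.05, 0.94 ± 0.06, 0.81 ± 0.05 and 0.85 ± 0.03, from 348, 355, 354 and 319 CPM (medians) to 555, 677, 637 and 585 CPM. S100a14, an epithelial member, rose by 0.60 ± 0.06, 0.70 ± 0.06, 0.63 ± 0.06 and 0.71 ± 0.04. The 3 rose beside markers of basal and differentiated keratinocytes, whose summed level was 25738 to 31717 CPM in day 5 sham ears and 43756 to 56163 CPM with imiquimod, and 18886 to 22765 against 50734 to 66242 CPM in the start-day experiment. Of these 8 markers 6, 5, 6 and 7 rose and 1, 3, 2 and 1 fell in the 4 comparisons, so the sum, which keratins such as Krt14 (4610 to 16750 CPM, means at day 5) carry, does not stand for each. Krt15, Krt10 and Lor were the 3 that fell at day 5 (-3.80, -0.39 and -1.90), named, like Krt14, after their values were seen. The part of these cells in the rises was not tested. The effect on S100a14 did not pass the test of a difference among days (adjusted p = 0.621), whereas those of S100a16 (0.000133) and S100a11 (0.00314) did. Such a difference was called for 8 of 10 members and 33.4% of all genes.

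The upstream window of S100a11 (chr3:93520246-93520495, plus strand, RefSeq GRCm38.p6) is shown as that of an abundant member that rose in all 4 comparisons. It held AP-1 matches at bases -136 to -130 and -38 to -32, letters that the 3 windows above lack, and 4 kappaB matches that are not capitalised. The matches did not follow the direction of change. S100a16 and S100a6 also rose in all 4 comparisons. S100a16 held 0 AP-1 matches at start site 1 and 1 at start site 2, and S100a6 held 0. S100a3, which fell, held C/EBP matches at start sites 1 and 4 and TATAAA at start site 3, and S100a4 held TATAAA. Capitals below mark the AP-1 matches of S100a11.
S100a11: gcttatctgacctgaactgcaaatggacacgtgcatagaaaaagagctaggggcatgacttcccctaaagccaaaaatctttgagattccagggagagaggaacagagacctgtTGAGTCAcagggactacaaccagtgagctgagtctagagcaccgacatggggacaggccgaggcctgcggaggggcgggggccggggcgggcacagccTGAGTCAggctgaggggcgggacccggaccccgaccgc

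S100a4, S100a6 and S100a10 differed from these 3 and between the experiments. S100a6 (calcyclin), which binds Cacybp, rose by 0.80 ± 0.06, 0.94 ± 0.07 and 0.63 ± 0.06 at days 2, 5 and 8, and by 0.21 ± 0.05 in the start-day experiment. Its medians went from 371, 334 and 352 CPM to 646, 633 and 567.7 CPM, and from 386 to 462 CPM. S100a10 (p11), the partner of annexin A2, rose by 0.42 ± 0.07 and 0.51 ± 0.08 at days 2 and 5, was not called at day 8 (0.15 ± 0.07, adjusted p = 0.0662), and fell in the start-day experiment (-0.26 ± 0.06, adjusted p = 0.000308). The day 8 value was called without sham library 38 (0.19, 0.0219) or 41 (0.20, 0.0138) or imiquimod library 47 (0.17, 0.0372) or 48 (0.17, 0.0466). S100a4, abundant in fibroblasts and macrophages and a partner of myosin-9, was not called at days 2 and 5 (0.05 ± 0.07 and 0.15 ± 0.07). Day 5 was called in the compared groups alone (0.14, 0.0353) and without imiquimod library 27 (0.17, 0.0434). S100a4 fell at day 8 (-0.28 ± 0.07, adjusted p = 0.000267) and in the start-day experiment (-0.71 ± 0.06, adjusted p = 4.79e-13). In the latter its sham libraries held 314 to 420 CPM and its imiquimod libraries 211 to 234 CPM, without overlap. The effect of imiquimod differed among days for S100a4 (adjusted p = 0.00126), S100a6 (0.0221, or 0.0656 without sham library 38) and S100a10 (0.0128).

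The joint fit tested the imiquimod effect of the start-day experiment against that of day 8, a difference called for 4 members and 21.4% of all genes. It was lower for S100a4 (-0.39 ± 0.09, adjusted p = 0.000665), S100a6 (-0.37 ± 0.08, 0.000231) and S100a10 (-0.36 ± 0.10, 0.0033), higher for S100a16 (0.23 ± 0.06, 0.00223), and not called for the other 6, S100a9 at 2.11 ± 0.96 (0.11) among them. DESeq2 called S100a9 (2.16, adjusted p = 0.0114), as did a fit of the compared groups (2.11, 0.000644). The fibroblast markers summed to 6836 to 9872 CPM in day 8 sham and 11207 to 15018 CPM in start-day sham ears, against 7747 to 9634 and 6758 to 8844 CPM with imiquimod. By count of tested markers, the imiquimod effect on 6 of 7 fibroblast markers was lower in the start-day experiment by the same joint test, as it was on 5 of 5 skeletal muscle genes. Whether these tissue differences bear on S100a4, S100a6 and S100a10 was not tested. Sham libraries themselves differed among days in 5.52% of all genes and in 1 member, S100a4 (adjusted p = 0.0427), which was not called without the filter on low counts (0.0722), in the compared groups alone (0.195), or without library 2, 3, 4, 19, 20, 21, 22, 38 or 41 (0.0504 to 0.105).

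**Figure D4:**
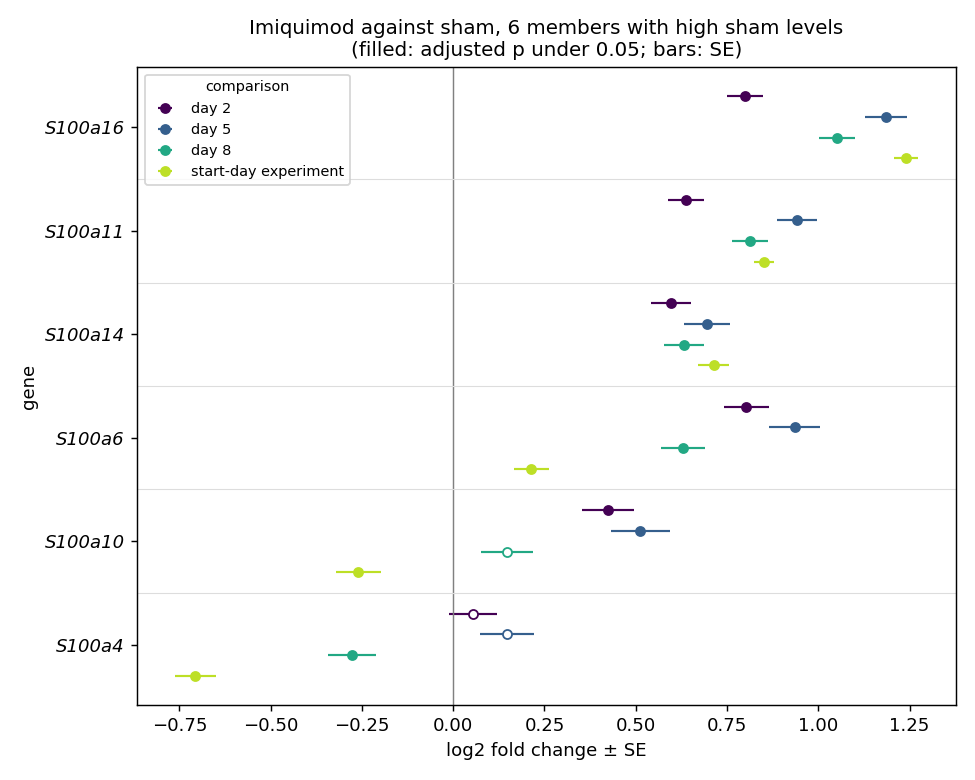
Log2 fold change of imiquimod against sham, with SE, for the 6 members with high sham levels at days 2, 5 and 8 and in the start-day experiment, filled where the edgeR adjusted p was under 0.05. S100a16, S100a11 and S100a14 lie between 0.60 and 1.24 in all 4 comparisons, and S100a10 and S100a4 are on the negative side in the start-day experiment at -0.26 and -0.71.

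Counted together, 8 of the 10 members rose and 1 fell with imiquimod at days 2 and 5, 7 rose and 2 fell at day 8, and 7 rose and 3 fell in the start-day experiment. Over all tested genes 57.7%, 70.4%, 68.1% and 78.1% were called in those comparisons, so most genes of the tissue moved. The share called higher was 29.2%, 34.6%, 34.5% and 38.1%, and that called lower 28.5%, 35.9%, 33.6% and 39.9%. The median log2 fold change of the members was 0.72, 0.94, 0.72 and 0.78, against -0.03, -0.04, -0.01 and -0.02 over all genes tested. Groups did not overlap for 8, 9, 8 and 8 members, against 34.5%, 57.2%, 48.3% and 61.7% of all genes.

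The drug touched few of the abundant members. S100a16 fell slightly, by 0.14 ± 0.05 at day 2 and 0.12 ± 0.05 at day 5 (log2 fold changes -0.14, adjusted p = 0.0382, and -0.12, 0.0466), and was at 0.01 ± 0.05 at day 8 (0.955). With the drug from day 0, 3 and 5 it gave -0.14 (adjusted p = 0.000845), -0.09 (0.0263) and -0.10 (0.0191), with medians of 350, 355 and 354 CPM against 384 CPM. S100a11 was called in the start-day experiment alone: -0.13 (0.0003) from day 0, where its 514 to 544 CPM lay below the 555 to 599 CPM of imiquimod, -0.07 (0.0416) from day 3 and -0.13 (0.000754) from day 5. Several of these small changes hung on single libraries. The day 2 call of S100a16 was lost without library 8, 9, 11, 13 or 14 (adjusted p 0.0735 to 0.145) without the filter (0.0748), in the compared groups alone (0.138) and with 9 and 11 both out (-0.08, 0.516). Its day 5 call was lost without the filter (-0.12, 0.102) and without any of 25, 26, 28, 29, 30, 31, 32, 33 or 35 (0.0548 to 0.165). From day 3, that of S100a16 was lost without 7, 10, 11, 19 or 22 (0.0529 to 0.0734), and that of S100a11 without 7, 8, 10, 11, 19, 20, 21, 22 or 23 (0.0511 to 0.108). Without the filter both were lost (0.0606 and 0.128). From day 5, S100a16 was lost without 11 (0.0568) or 13 (0.0529).

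S100a14, S100a4, S100a6 and S100a10 were called in none of the 6 drug comparisons, with values between -0.15 and 0.16. S100a10 from day 5 gave -0.15 ± 0.06 (adjusted p = 0.0776) and was called by DESeq2 (-0.16, 0.0438), in the compared groups (-0.15, 0.0492) and without library 15 (-0.18, 0.0356). S100a14 at day 2 was called without library 17 (-0.16, adjusted p = 0.0488). So 4 members fell and 1 rose with the drug at days 2 and 5, 0 moved at day 8, and 5 fell and 1 rose for each of the 3 start days. The share of all genes called was 16.5% at day 2, 35.4% at day 5, 1.56% at day 8, and 35.1%, 34.3% and 27.7% for the start days. The shares called lower were 9.61%, 17.2%, 0.335%, 16.9%, 16.4% and 12.7%, and those called higher 6.9%, 18.3%, 1.22%, 18.2%, 18% and 15%. At day 8, 1 of 10 members (S100a3) had an unadjusted p under 0.05 by edgeR, and DESeq2 called 0. Groups did not overlap for 0, 3 and 0 members at days 2, 5 and 8 and for 5, 3 and 4 from day 0, 3 and 5, against 1.74%, 10.5%, 1.67%, 16.1%, 15.8% and 10.3% of all genes. The day 2 comparison called 3100 genes in all, 7 with libraries 9 and 11 left out and 0 when only the compared groups were fitted.

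**Figure D5:**
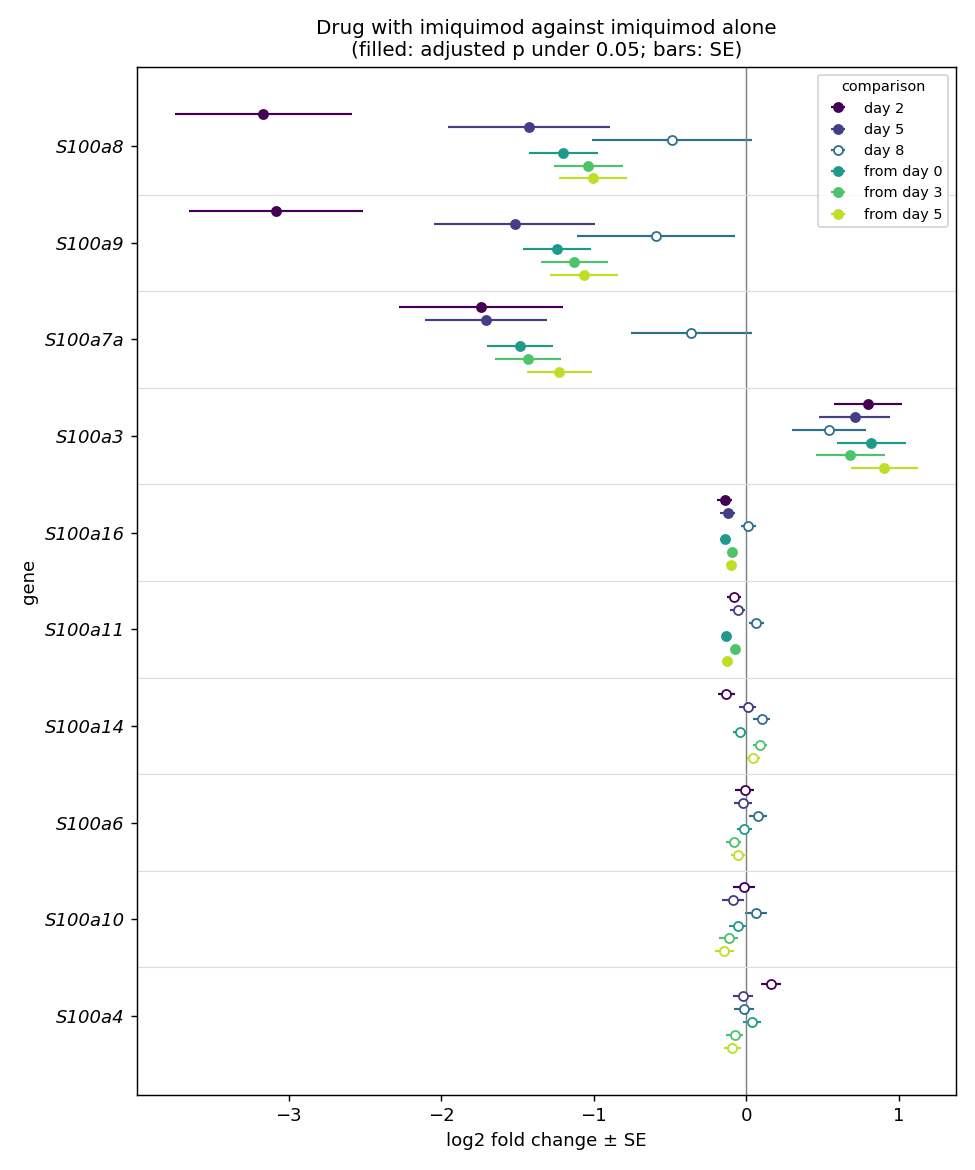
Log2 fold change of imiquimod with the drug against imiquimod alone, with SE, for all 10 members in 6 comparisons, filled where the edgeR adjusted p was under 0.05. S100a8, S100a9 and S100a7a lie left of 0 and S100a3 right of it in every comparison, though none is filled at day 8, and the 6 abundant members lie within -0.15 and 0.16.

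The genes through which extracellular S100 proteins signal moved in both directions, as the genes of the tissue did at large. Of 7 receptor and signalling genes, 3 rose and 1 fell with imiquimod at day 2, 5 and 2 at day 5, 4 and 2 at day 8, and 4 and 2 in the start-day experiment. Of all tested genes, 57.7%, 70.4%, 68.1% and 78.1% were called in those comparisons, with similar shares higher and lower. At day 5 Cd14, the TLR4 co-receptor, rose by 3.79 ± 0.59, from 3.84 to 52.98 CPM (means), Myd88, the adaptor, by 1.45 ± 0.11, Ly96 by 0.75 ± 0.15 and Bsg by 0.42 ± 0.04. Ager, which encodes RAGE, fell at every day and in the start-day experiment (-0.83 ± 0.19, -0.68 ± 0.21, -0.67 ± 0.19 and -0.51 ± 0.17). It was singled out as a calprotectin receptor after its values were seen. With the drug, 1 of 7 fell at day 2, 3 fell and 1 rose at day 5, 1 rose at day 8, and 1 rose while 3, 2 and 2 fell from day 0, 3 and 5. The shares of all genes called were 16.5%, 35.4% and 1.56% at days 2, 5 and 8, and 35.1%, 34.3% and 27.7% from day 0, 3 and 5. Cd14 was lower with the drug at day 5 (-1.49 ± 0.43, adjusted p = 0.00614), Tlr4 by 0.68 (-0.68 ± 0.12) and Myd88 by 0.43 (-0.43 ± 0.09), while Cd36, a scavenger receptor, was higher (0.76 ± 0.11).

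Of 9 intracellular partners, 5 rose and 2 fell at day 2, 5 and 1 at day 5, 6 and 3 at day 8, and 5 and 3 in the start-day experiment. The shares of all genes called were again 57.7%, 70.4%, 68.1% and 78.1%. Cacybp, the partner of S100a6, rose by 0.92 ± 0.08, 1.12 ± 0.09, 0.85 ± 0.08 and 0.88 ± 0.04, and Myh9, the partner of S100a4, by 0.58 ± 0.08, 0.85 ± 0.09, 0.81 ± 0.08 and 0.88 ± 0.04. Myh9 rose in the comparisons in which S100a4 fell. Anxa2, singled out after its values were seen as the partner of S100a10, rose by 0.36 ± 0.06, 0.57 ± 0.07 and 0.23 ± 0.06 at the 3 days and was not called in the start-day experiment (0.00 ± 0.06, adjusted p = 0.94). With the drug 1 of 9 rose and 3 fell at day 2, 1 and 5 at day 5, 0 and 0 at day 8, and 2 rose for each start day while 5, 5 and 4 fell. The shares of all genes called were 16.5%, 35.4%, 1.56%, 35.1%, 34.3% and 27.7%. At day 5 the partners called included Anxa11 (-0.34 ± 0.06), Myh9 (-0.41 ± 0.08) and Anxa1 (-0.31 ± 0.06), with Padi1, a deiminase, higher (1.53 ± 0.27).

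Of 8 further S100 genes, S100a1, S100a13 and S100b could be tested, and S100a2, S100a5, S100a7l2, S100g and S100z were too low. With imiquimod 2 of the 3 fell and 0 rose at day 2, and 2 fell and 1 (S100a13) rose at days 5 and 8. In the start-day experiment all 3 fell, S100a13 among them. S100b, a gene of Schwann cells, fell with imiquimod by 1.68 ± 0.13, 2.51 ± 0.15 and 2.36 ± 0.14 at days 2, 5 and 8 and by 2.86 ± 0.10 in the start-day experiment (log2 fold changes -1.68, -2.51, -2.36 and -2.86). It rose with the drug at day 5 (0.94 ± 0.14) and from day 0, 3 and 5 (0.56, 0.55 and 0.39, each ± 0.10), and was not called at day 2 (0.33 ± 0.14) or day 8 (0.31 ± 0.14). All 6 Schwann cell markers fell with imiquimod in all 4 comparisons, where 28.5%, 35.9%, 33.6% and 39.9% of all genes were called lower. With the drug 2, 6 and 0 of these markers rose at days 2, 5 and 8, and 6, 6 and 4 from day 0, 3 and 5. The shares of all genes called higher were 6.9%, 18.3%, 1.22%, 18.2%, 18% and 15%. S100a1, of muscle and heart, fell by 0.43 to 1.19, and the 5 skeletal muscle markers fell in all 4 comparisons too. The part of these cells in the S100b and S100a1 results was not tested. S100a7l2, the near relative of S100a7a, had 4 counts over all time-course libraries and 2 over all start-day libraries.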

How the data were processed

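Ear skin mRNA was sequenced in 82 libraries, and 56941 genes were listed. The deposited values are estimated counts per gene from salmon, made by the authors against GRCm39, per the submitters' processing notes. Its version, annotation and strand setting were not given in the sources used here. Counts were rounded, filtered with filterByExpr (18780 and 18434 genes kept in the time course and the start-day experiment), scaled by TMM and fitted with edgeR 4.0.16 in R 4.3.3 (robust quasi-likelihood F tests), all groups of an experiment in 1 fit, with Benjamini-Hochberg adjustment over all tested genes. A joint fit of 19455 genes compared the experiments. Standard errors are the absolute log2 fold change over the square root of F. Ratios added 0.5 to counts and used exact permutation tests. DESeq2 1.42.0, other scaling, filters, samples and leaving out each library were alternatives. The fit was tested on simulated data.

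All 10 members are named. Of listed genes, up to 4 per list with the smallest adjusted p are named, with the 3 genes nearest in group pattern to members spanning over 2 log2 units. Those nearest genes were sought above the stated floor on mean level. Counts of listed genes called are to be read beside the share of all genes called in the same comparison. The members and lists were chosen with earlier results of these data known. No 2 libraries of the same group agreed within sampling noise, and pairs across groups were not compared. Motifs were searched in RefSeq promoter windows of GRCm38.p6.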

Additional observations from a re-analysis of the deposited data

Results flagged for a closer look

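In 9 of 140 sets of 1 gene in 1 group, 1 library stood far from the others by Dixon's test, where chance gives about 5%. In sham ears, library 38 of day 8 was high in both S100a4 (432 CPM, others 272 to 315) and S100a6 (458 CPM, others 329 to 372). Library 21 of day 5 sham was high in both S100a14 (319 CPM, others 273 to 280) and S100a16 (191 CPM, others 167 to 168), and library 42 of day 8 sham was high in S100a7a (0.470 CPM, others 0.0864 to 0.212). With imiquimod, library 27 of day 5 was low in S100a16 (360 CPM, others 397 to 409) and library 48 of day 8 was low in S100a14 (384 CPM, others 425 to 437). With the drug, library 17 of day 2 was high in S100a8 (91.1 CPM, others 13.5 to 41.3) and library 13 of the day 5 start was high in S100a3 (2.64 CPM, others 1.14 to 1.61).

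Effects that differed between groups by a test of the difference were the following. The effect of imiquimod differed among days 2, 5 and 8 (edgeR F test) for S100a8 (adjusted p = 0.000158), S100a9 (0.000136), S100a7a (0.000976), S100a4 (0.00126), S100a6 (0.0221), S100a10 (0.0128), S100a11 (0.00314) and S100a16 (0.000133). The effect of the drug differed among days for S100a8 (adjusted p = 0.0494). The effect of imiquimod differed between day 8 and the start-day experiment for S100a4 (edgeR adjusted p = 0.000665), S100a6 (0.000231), S100a10 (0.0033) and S100a16 (0.00223). No explanation of these differences was tested.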

How the results depend on the processing

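Of 134 called member fold changes, recomputed in 2214 values under the alternatives, 0 changed sign and 65 values, in 15 results, lost the call. Most of the 134 compare with sham, whereas most of those 15 compare the drug with imiquimod alone, so the drug calls were the less stable. The number of members called was 5 for the drug at day 2, against 3 without the filter on low counts, 0 in the compared groups alone, 0 with libraries 9 and 11 out (chosen after seeing the data), and 2 to 6 leaving out 1 library. For the drug at day 5 it was 5, against 3 without the filter and 2 to 5 leaving out 1 library. From day 3 it was 6, against 3 to 6. For imiquimod from day 5 to day 8 it was 1, against 3 with DESeq2, 3 with relative log expression (RLE) factors, 2 in the compared groups, and 1 to 3. For sham among days it was 1, against 3 with DESeq2, 0 without the filter, 0 in the compared groups, and 0 to 1. For the drug effect among days it was 1, against 0 with DESeq2, without the filter, in the compared groups and without libraries 9 and 11, and 0 to 3. For the joint drug effect it was 0, against 1 with DESeq2 and in the compared groups. The causes were not tested.

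The drug at day 8 changed 293 genes, against 521 with DESeq2, 147 without the filter and 93 to 426 leaving out 1 library. Leaving out 1 library moved the S100a8 to S100a9 ratio difference, imiquimod against sham, between -0.36 and -0.12 at day 2, 0.0667 and 0.53 at day 5, 0.24 and 0.47 at day 8, and -1.21 and -0.50 in the start-day experiment. For the drug it ran from 0.0635 to 0.11 at day 5 and from 0.0508 to 0.0711 from day 5.

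Only values near 0 that were not called changed sign. With libraries 9 and 11 out, S100a6 (0.0205) and S100a10 (0.0494) turned for the drug at day 2, and S100a6 (0.0181) for imiquimod from day 2 to day 5, as it did with DESeq2 (0.00203) and RLE factors (0.0021). S100a14 for the drug at day 5 gave -0.014 with DESeq2 and with RLE factors. Leaving out 1 library gave ranges crossing 0 for S100a6 (-0.0483 to 0.0162) and S100a10 (-0.0427 to 0.0226) for the drug at day 2, and for S100a4 (-0.0536 to 0.00365), S100a6 (-0.064 to 0.0251) and S100a14 (-0.0312 to 0.0334) at day 5. The same held for S100a4 (-0.0358 to 0.00486) and S100a16 (-0.00982 to 0.0384) at day 8, and for S100a6 from day 0 (-0.0329 to 0.00905). It held too for S100a6 (-0.0608 to 0.0215) for imiquimod from day 2 to day 5, and for S100a3 (-0.182 to 0.0772) from day 5 to day 8.

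No paired analysis was possible because the groups compared share no replicate numbers. Low counts limit S100a7a, with 29 counts over all day 8 sham libraries, and S100a3, with 111 over all day 8 imiquimod libraries, and limit calprotectin in sham ears, where S100a8 had 52 counts over the 4 day 5 libraries.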
